A study of Mus musculus with 2 samples.

Results

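The auxiliary subunits of voltage-gated calcium channels are encoded in the mouse by 4 α2δ genes, Cacna2d1 to Cacna2d4, and 4 β genes, Cacnb1 to Cacnb4. These 8 genes were taken by symbol, and all 8 are among the 32813 symbols of the table. They were measured in sorted type 5 bipolar cells, a class of cone bipolar cells that carries signals from photoreceptors to the inner retina. Retinas of Htr3a-GFP mice, a line in which the Htr3a promoter drives a green fluorescent protein, were dissociated and the cells sorted by fluorescence. The series holds 1 group of 2 total RNA libraries, which the design text calls biological replicates, with no treatment and no second cell population. The sources used here do not give age, sex or the number of animals per library. Each value is therefore a level in these sorted cells and not an enrichment over retina.

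A high-voltage-activated calcium channel consists of a pore-forming α1 subunit, an α2δ subunit and a β subunit. The α2δ subunit is an extracellular glycoprotein held at the membrane, which raises the number of channels at the cell surface and takes part in synapse assembly. The β subunit lies in the cytosol, binds the linker between the first repeats of α1, and promotes trafficking and sets gating. At the ribbon synapses of photoreceptors and bipolar cells, L-type channels admit the calcium that triggers sustained glutamate release.

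Levels are in transcripts-per-million units (TPM), which are scaled by transcript length, so levels of different genes can be compared. Read depth cannot be recovered from TPM and is unknown here, so values carry the spread of the libraries but no counting error. Of the 7 genes listed as markers of type 5 cells, 5 were above 1 TPM in both libraries, and so were all 8 ON bipolar genes, which include Grm6 and Trpm1. These genes were also called above 1 TPM by the limma test given below, as were 55.5% of all genes tested. Htr3a, whose promoter drives the protein used for sorting, is among the 5. Not among them were Chrm2, at 0.08 and 1.15 TPM in replicates 1 and 2, and Slitrk5, at 0.55 and 2.15 TPM. Mitochondrially encoded RNA made up 17.3% of replicate 1 and 24.6% of replicate 2 by TPM. The median gene had a log2 difference of -0.20 (replicate 2 minus replicate 1). A listed 0 can be a failed estimate, since replicate 1 lists 0 for Rps27, a ribosomal protein gene, and replicate 2 lists 838 TPM. In bulk samples, fewer cells of a type and less RNA per cell cannot be told apart.

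Each family was led by a single gene in both libraries: Cacna2d4 among the α2δ genes and Cacnb2 among the β genes. Of the 8 members, 7 were called above 1 TPM and 2, Cacna2d4 and Cacnb2, above 10 TPM (one-sided limma test, p-values adjusted by Benjamini-Hochberg over 19968 genes, threshold 0.05). Of all genes tested, 55.5% were called above 1 TPM and 32.4% above 10 TPM. The count above 1 TPM is thus higher than the share of all genes would give, and the count above 10 TPM is near it. All 8 members had a value above 0 in at least 1 library and entered the test. On the log2(TPM + 1) scale the members had a median level of 3.95, and all genes tested had 3.22. In this fit the variance of a gene was read from the trend with abundance, and how far its own 2 libraries lay apart played no part in the call.

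**Figure D1:**
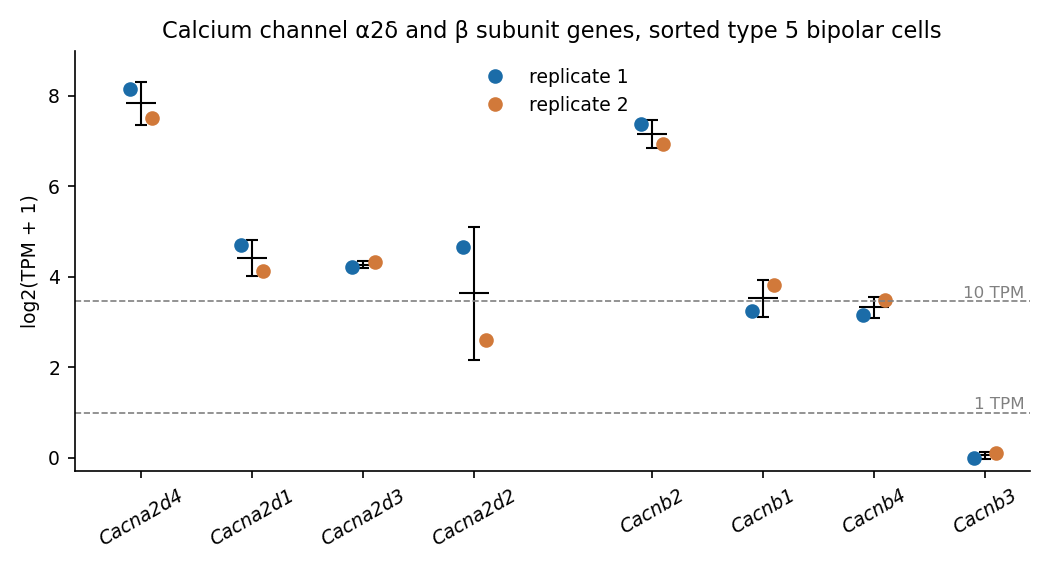
Level of the 8 subunit genes in each library (points) on the log2(TPM + 1) scale, with the mean and the SD of 2 libraries (bars), ordered by mean within each family. Cacna2d4 and Cacnb2 stand above the other members of their families in both libraries, and Cacnb3 lies at the floor of the axis.

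Among the α2δ genes, Cacna2d4 stood highest. It encodes the α2δ subunit of photoreceptor terminals, and its loss in mice and humans impairs photoreceptor transmission. Cacna2d4 had 286 TPM in replicate 1 and 181 TPM in replicate 2, a mean of 233 ± 74.4 TPM (SD, n = 2). It ranked 535 among all symbols by mean TPM and lay above 97.3% of the genes tested. In the GENCODE M21 annotation, which uses build GRCm38 (mm10), the gene is protein-coding and occupies bases 119236526 to 119352407 of chromosome 6, plus strand.

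The other α2δ genes lay lower and near each other. Cacna2d1 encodes a subunit known as a binding site of gabapentin and as a neuronal receptor of thrombospondins. It had 25.0 TPM in replicate 1 and 16.6 TPM in replicate 2, a mean of 20.8 ± 5.94 TPM (SD, n = 2). Cacna2d3, known in mice for roles in hearing and in pain, had 17.6 TPM in replicate 1 and 19.0 TPM in replicate 2. Its libraries were the closest of the α2δ family, 0.10 apart on the log2(TPM + 1) scale. Cacna2d2, the gene mutated in the ataxic ducky mouse and another binding site of gabapentin, had 24.4 TPM in replicate 1 and 5.06 TPM in replicate 2. Its level in replicate 1 was close to that of Cacna2d1, and its level in replicate 2 was the lowest of the family. On the same assembly, Cacna2d1 lies on chromosome 5 from 15934691 to 16374511 (plus strand), Cacna2d2 on chromosome 9 from 107399612 to 107529343 (plus strand) and Cacna2d3 on chromosome 14 from 28904943 to 29721864 (minus strand).

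Cacna2d4 exceeded the next gene, Cacna2d1, 11.4-fold in replicate 1 and 10.9-fold in replicate 2. The gap of their mean levels, 212 TPM, was larger than the sum of their SDs, 80.3 TPM. Below Cacna2d4 no order could be set. Cacna2d1 and Cacna2d3 differed by 2.51 TPM in the mean, against a sum of SDs of 6.89 TPM, and their order turned round between the libraries. Cacna2d3 and Cacna2d2 differed by 3.59 TPM, against a sum of SDs of 14.6 TPM, and their order also turned round. With 2 libraries, an exact two-sided test cannot go below p = 0.5, so none was made between members.

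All 4 α2δ genes were called above 1 TPM. Cacna2d1 and Cacna2d3 were not called above 10 TPM although both libraries lay above that value (limma, adjusted p = 0.0856 and 0.184). When the TPM were rescaled without the mitochondrial genome, both passed (limma, adjusted p = 0.0106 and 0.0357), and the count of members above 10 TPM became 4. Over 7 alternative settings the adjusted p of this call lay between 0.0106 and 0.147 for Cacna2d1 and between 0.0357 and 0.164 for Cacna2d3 (limma). Of the 7 calls above 1 TPM, that of Cacna2d2 was the 1 that another limma setting removed. It was lost (limma, adjusted p = 0.0999) when genes listed at 0 in both libraries were also fitted, the highest of 7 alternatives, of which the lowest gave 2.78e-07.

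Among the β genes, Cacnb2 stood highest. It encodes the β subunit that mouse photoreceptor terminals depend on and that also serves L-type channels of the heart. Cacnb2 had 165 TPM in replicate 1 and 121 TPM in replicate 2, a mean of 143 ± 31.1 TPM (SD, n = 2). It ranked 1042 by mean TPM and lay above 94.8% of the genes tested. Cacnb1, whose product is required for excitation-contraction coupling of skeletal muscle and is also made in brain, had 8.44 TPM in replicate 1 and 13.0 TPM in replicate 2. Cacnb4, the gene mutated in the epileptic and ataxic lethargic mouse, had 7.92 TPM in replicate 1 and 10.2 TPM in replicate 2. Both were called above 1 TPM (limma, adjusted p = 0.000611 for Cacnb1 and 0.00336 for Cacnb4). Cacnb3, a β gene of brain and smooth muscle, had 0.08 TPM in replicate 2, and replicate 1 lists it at 0. It was the 1 member not called above 1 TPM, and both of its libraries lay below that line. Cacnb2 lies on chromosome 2 from 14603088 to 14987908 (plus strand) and Cacnb4 on chromosome 2 from 52428320 to 52676831 (minus strand). Cacnb1 lies on chromosome 11 from 98001508 to 98023034 (minus strand) and Cacnb3 on chromosome 15 from 98630840 to 98644529 (plus strand). All 8 members are protein-coding.

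Cacnb2 exceeded Cacnb1 19.6-fold in replicate 1 and 9.29-fold in replicate 2. The gap of 132 TPM in the mean was larger than the sum of their SDs, 34.4 TPM. Cacnb1 and Cacnb4 kept the same order in both libraries, but their gap of 1.67 TPM was smaller than the sum of their SDs, 4.88 TPM. Cacnb3 lay below Cacnb4 in both libraries. No fold is given against Cacnb3, because replicate 1 lists it at 0.

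The upstream sequences of the genes that differ most within the β family, Cacnb2 and Cacnb3, and of the α2δ neighbours Cacna2d1 and Cacna2d3 are shown because Cacnb2 and Cacnb3 are the highest and lowest of the β genes and the α2δ pair lies between them. They are bases before a RefSeq transcript start on GRCm38.p6, up to the first annotated exon, written 5′ to 3′ on the gene's strand. Capitals mark the GC box GGGCGG and the E box CAGCTG, each searched on both strands.
Cacnb2 (chr2:14823842-14824025, plus strand): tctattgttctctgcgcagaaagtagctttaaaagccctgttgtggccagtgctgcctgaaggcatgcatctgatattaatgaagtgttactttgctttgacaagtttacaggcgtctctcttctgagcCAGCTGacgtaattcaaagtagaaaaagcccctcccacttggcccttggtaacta
Cacnb3 (chr15:98632078-98632327, plus strand): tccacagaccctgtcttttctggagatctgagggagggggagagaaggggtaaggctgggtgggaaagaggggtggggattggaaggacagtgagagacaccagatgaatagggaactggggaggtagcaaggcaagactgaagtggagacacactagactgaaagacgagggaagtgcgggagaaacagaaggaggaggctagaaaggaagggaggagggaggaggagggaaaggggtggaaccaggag
Cacna2d1 (chr5:15934441-15934690, plus strand): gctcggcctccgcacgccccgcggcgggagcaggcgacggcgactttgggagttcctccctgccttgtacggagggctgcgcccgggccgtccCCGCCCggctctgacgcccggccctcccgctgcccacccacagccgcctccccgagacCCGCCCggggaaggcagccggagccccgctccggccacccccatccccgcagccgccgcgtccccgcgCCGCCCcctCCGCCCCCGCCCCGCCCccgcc
Cacna2d3 (chr14:29721865-29722114, minus strand): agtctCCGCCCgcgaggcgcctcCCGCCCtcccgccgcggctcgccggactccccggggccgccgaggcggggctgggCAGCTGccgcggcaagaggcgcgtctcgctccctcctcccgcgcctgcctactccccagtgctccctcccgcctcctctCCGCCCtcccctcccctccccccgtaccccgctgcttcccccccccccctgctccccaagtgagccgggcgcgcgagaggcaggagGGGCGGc

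RefSeq windows were matched for 7 of the 8 members, 12 windows in all, and Cacna2d4 has no entry. Cacnb2 and Cacnb3 have another annotated start each, whose window begins in an annotated exon and is not printed, and TPM per gene does not say which start was used. In 250 bases before the start, the Cacnb2 window shown had 46.0% G and C and 3 CpG, and the Cacnb3 window shown 56.0% and 2 CpG. The windows of Cacna2d1 and Cacna2d3 had 82.4% and 80.0% G and C with 36 and 30 CpG, against a median of 52.4% and 6 CpG over 32851 windows. The windows not shown were different: the other Cacnb2 window had 73.2% G and C and 30 CpG, and the other Cacnb3 window 70.4% and 23 CpG. GGGCGG occurred 6 times before Cacna2d1 and 4 times before Cacna2d3, and was in neither β window shown. The other windows of Cacnb2 and Cacnb3 held it 1 and 3 times, and 1 window each of Cacnb1 and Cacnb4 held it 5 and 6 times. In all, 7 of the 12 windows held GGGCGG, while 32.7% of all windows held it. Each of the 7 genes had at least 1 such window, a count per gene for which no share over all genes was taken. The windows that held it had 70.4% to 82.4% G and C, against the median of 52.4%, and a Cacnb4 window with 71.2% did not hold it. The part of base composition was not tested. CAGCTG was in 4 of the 12 windows, those of Cacna2d3, both of Cacnb2 and 1 of Cacnb4, and in 13.0% of all windows. TAATCC, the core word bound by the retinal homeodomain proteins Otx2 and Crx, was in none of the 12 windows and in 6.25% of all windows. A match is a description of these letters and not of binding.

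**Figure D2:**
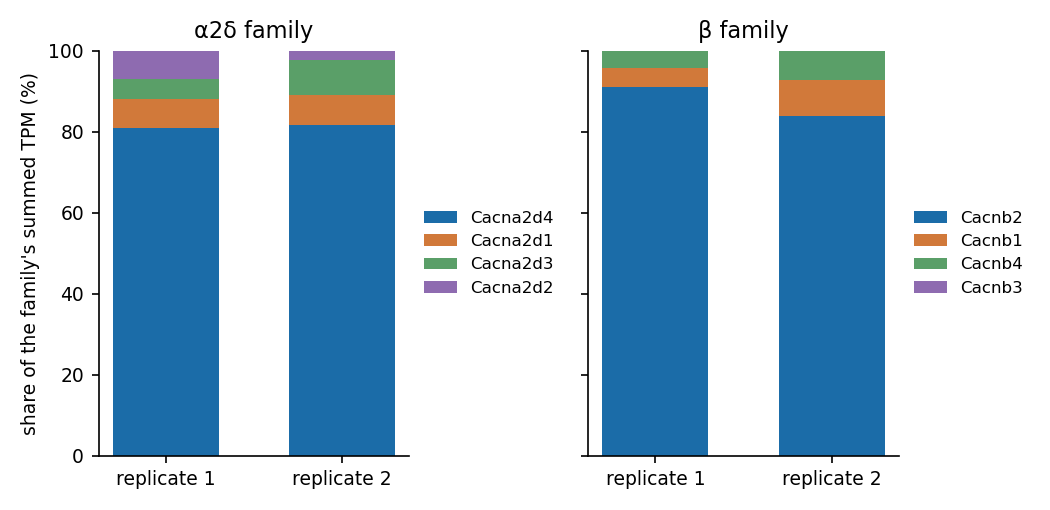
Share of each gene in the summed TPM of its family (percent, bars stacked to 100) in each library. Cacna2d4 makes up 81.0% and 81.6% of the α2δ sum in replicates 1 and 2, and Cacnb2 91.0% and 83.8% of the β sum.

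As a share of the summed TPM of its family, Cacna2d4 held 81.0% in replicate 1 and 81.6% in replicate 2. Its share varied less than its level, which is partly given by the arithmetic, because the gene makes up most of the sum. The family sum stood at 353 TPM in replicate 1 and 221 TPM in replicate 2. Cacnb2 held 91.0% of the β sum in replicate 1 and 83.8% in replicate 2, with sums of 181 and 144 TPM. Of the smaller α2δ shares, Cacna2d1 held 7.09% and 7.51%, Cacna2d3 held 5.00% and 8.58%, and Cacna2d2 held 6.91% and 2.29% in replicates 1 and 2. In the stacked shares the smaller α2δ genes change places between the libraries, and the β genes keep their order.

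Neither family moved one way between the libraries. Of the α2δ genes, 3 were lower in replicate 2 and 1 was higher, and of the β genes 1 was lower and 3 were higher. Cacna2d4 had a log2 difference of -0.66 and Cacnb2 of -0.44 (replicate 2 minus replicate 1), while the median gene had -0.20. Among 1584 genes whose mean lay between 100 and 1000 TPM, 23.2% differed at least as much as Cacna2d4 and 42.0% at least as much as Cacnb2. Cacna2d2 had the widest difference of the members, -2.07 on the log2(TPM + 1) scale. Among 8216 genes whose mean lay between 10 and 100 TPM, 6.97% differed at least as much as Cacna2d2. For Cacna2d1 and Cacnb1 that share was 54.1% and 53.4%, so their spread was near the middle of genes of their level. Rescaling without the mitochondrial genome left Cacna2d4 at 346 TPM in replicate 1 and 240 TPM in replicate 2, and Cacna2d2 at 29.5 and 6.71 TPM.

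**Figure D3:**
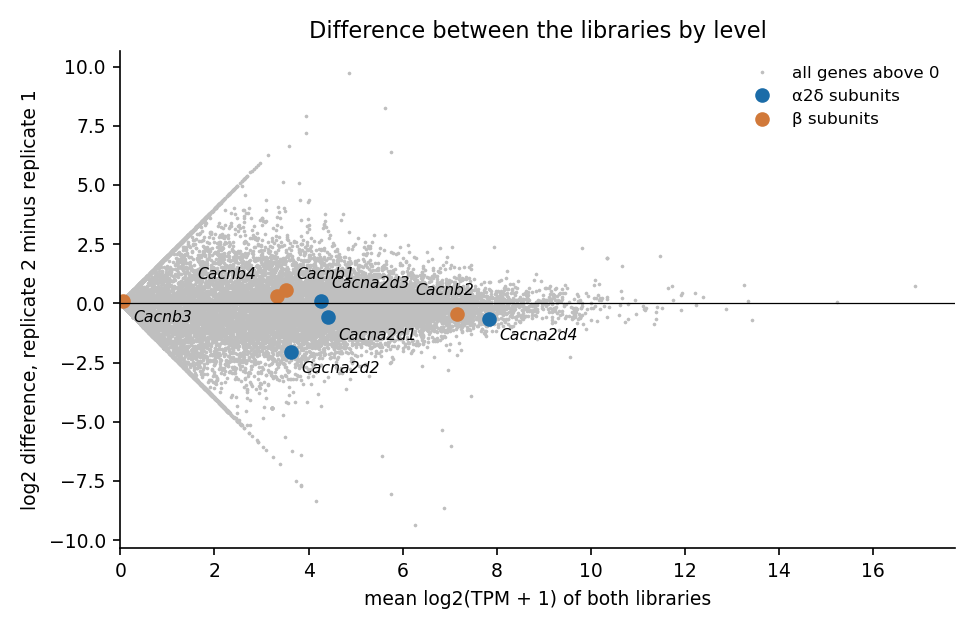
Difference between the libraries (log2(TPM + 1), replicate 2 minus replicate 1) against the mean level for all 19968 genes above 0 (grey) and the 8 subunit genes (coloured). Cacna2d2 lies at -2.07, and the other 7 members lie between -0.66 and 0.57.

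Photoreceptors use the same leading subunits, and their genes were present in these libraries. Of 10 rod genes, 8 were called above 1 TPM, and their summed level was 847 TPM in replicate 1 and 1178 TPM in replicate 2. Over all genes tested 55.5% were called above 1 TPM, and genes at 0 in both libraries were not tested. Of 9 cone genes, 2 were called above 1 TPM, Gnat2 and Gngt2, and the summed level was 194 TPM in replicate 1 and 46.9 TPM in replicate 2. Of the 9 cone genes 8 were lower in replicate 2, while of the 10 rod genes 2 were lower and 8 were higher. Among the 8 members 4 were lower, Cacna2d4, Cacnb2, Cacna2d1 and Cacna2d2, and 4 were higher. Over all genes tested 58.5% were lower in replicate 2. The part of photoreceptor RNA in the levels of the subunit genes was not tested. Amacrine genes summed to 60.4 TPM in replicate 1 and 95.3 TPM in replicate 2, with 2 of 9 called above 1 TPM, Pax6 and Slc6a9. Replicate 2 had 7 of these genes with a level of at least 1 TPM, and replicate 1 had 2. Tfap2b had 0.33 TPM in replicate 1 and 20.4 TPM in replicate 2, Gad1 had 0.06 and 10.4 TPM and Gad2 had 0.11 and 9.94 TPM, while Slc6a9 had 36.6 and 3.12 TPM. Neither library has a value above 0 for Chat or Calb2. Ganglion cell genes summed to 31.7 and 73.0 TPM, with 1 of 7 called, Thy1, which had 28.3 TPM in replicate 1 and 63.9 TPM in replicate 2. Rbpms had 3.25 and 8.91 TPM, and Sncg, Nefm and Pou4f2 were at 0 in each library. Muller glia genes summed to 188 TPM in replicate 1 and 403 TPM in replicate 2, with 6 of 8 called. In replicate 2, 7 of them were higher and 1 was lower. Glul had 75.8 TPM in replicate 1 and 124 TPM in replicate 2, and Clu had 85.7 and 79.5 TPM. Vim had 0.20 and 119 TPM, and its call above 1 TPM did not weigh that disagreement. Of 5 rod bipolar genes 1 was called, Rpa1, while 4 had at least 1 TPM in both libraries. Over the limma settings, 1 to 4 of these 5 genes were called. By limma, none of 7 OFF bipolar and none of 4 horizontal cell genes was called, at an adjusted or an unadjusted p under 0.05. Of 7 vascular, immune and blood genes 2 were called, Alas2 and Hba-a1, and Cldn5 is listed at 0 in each library. Of 5 muscle genes 1 was called, Ttn, and Ryr1 and Myh1 were listed at 0 in both libraries.

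The α1 genes encode the pores that these subunits join. Of 10 α1 genes 8 were called above 1 TPM and 6 above 10 TPM, against 55.5% and 32.4% of all genes tested. Cacna1f, the L-type pore of photoreceptor terminals, had 247 TPM in replicate 1 and 134 TPM in replicate 2. Cacna1d, the L-type pore of hair cells and many neurons, had 33.4 and 28.2 TPM. Cacna1a and Cacna1b, the P/Q-type and N-type pores, had means of 26.6 ± 5.76 and 31.0 ± 6.07 TPM, and Cacna1e, the R-type pore, of 20.5 ± 12.7 TPM (SD, n = 2). Cacna1c, the L-type pore of heart and brain, had 2.01 TPM in replicate 1 and 0.24 TPM in replicate 2 and was not called. Cacna1s, the pore of skeletal muscle, had 50.4 TPM in replicate 1 and 1.74 TPM in replicate 2, the widest disagreement of the α1 genes, and its call above 1 TPM did not weigh that disagreement. The T-type pores, which conduct without needing β or α2δ subunits, included the highest α1 gene, Cacna1h, at 320 ± 79.8 TPM. Cacna1g stood at 66.2 ± 6.81 TPM and Cacna1i, not called, at 3.73 ± 1.36 TPM (SD, n = 2).

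Summed over the family, α2δ transcripts stood at 0.879 of the summed level of the 7 high-voltage-activated α1 genes in replicate 1 and at 0.880 in replicate 2. The β sum stood at 0.452 of the α1 sum in replicate 1 and at 0.574 in replicate 2. Without Cacna1s, the α2δ ratio was 1.005 in replicate 1 and 0.886 in replicate 2, and the β ratio 0.517 and 0.578. Both families are divided by the same α1 sum, so the order of these ratios is only that of the family sums. Those were 353 and 221 TPM for α2δ and 181 and 144 TPM for β in replicates 1 and 2. Gene by gene, Cacna2d4 stood at 1.16 times the level of Cacna1f in replicate 1 and 1.35 times in replicate 2. Cacnb2 stood at 0.669 and 0.903 times the level of Cacna1f. These are ratios of transcript levels and give no count of proteins or channels.

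**Figure D4:**
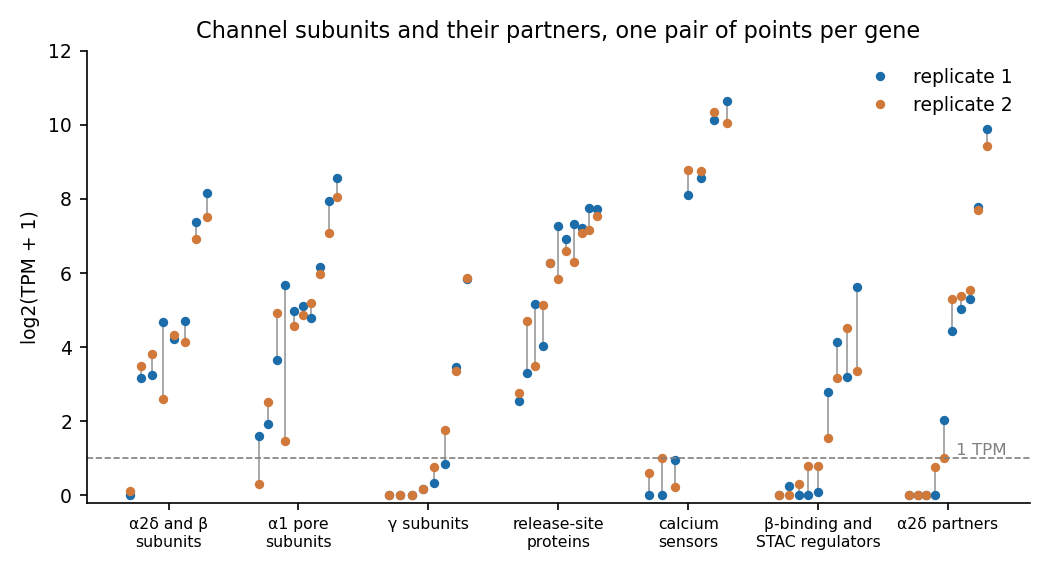
Levels on the log2(TPM + 1) scale of the 8 subunit genes and of 6 lists of channel and release-site genes, each gene shown as its 2 libraries joined by a line and ordered by mean level within its list. The dashed line marks 1 TPM. Release-site genes all lie above the line in both libraries, while γ genes, α2δ partners and β-binding regulators include genes at 0.

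Transcripts of genes whose products hold or modulate the channel at release sites were measured next. Of 11 release-site genes 10 were called above 1 TPM, against 55.5% of all genes tested. Unc13b and Rims2, a vesicle-priming factor and a scaffold that binds the β subunit, stood at 199 ± 19.4 and 179 ± 50.9 TPM (SD, n = 2). Erc1 and Pclo, scaffold genes of the active zone, stood at 141 ± 9.45 and 118 ± 57.0 TPM. The lowest were Erc2 at 17.1 ± 11.6 TPM and Rimbp2, which couples calcium channels to Rims proteins, at 5.29 ± 0.643 TPM. Rimbp2 was not called above 1 TPM although its libraries had 4.83 and 5.74 TPM.

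Of 7 calcium sensor genes that act on channels, 4 were called above 1 TPM, against 55.5% of all genes tested. Cabp5, a calcium-binding protein of bipolar cells, stood at 1337 ± 385 TPM, and the calmodulin genes Calm2 and Calm3 at 1218 ± 124 and 356 ± 113 TPM (SD, n = 2). Cabp4, which modulates the Cacna1f channel of photoreceptors, had 0.94 TPM in replicate 1 and 0.16 TPM in replicate 2. Cabp1 stood at 0.51 TPM in replicate 2, and replicate 1 lists it at 0.

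Of 8 γ subunit genes, 5 were tested and 2 were called above 1 TPM, against 55.5% of all genes tested. Cacng7 and Cacng4, both of the group that accompanies AMPA receptors, stood at 56.5 ± 0.905 and 9.58 ± 0.559 TPM (SD, n = 2). Cacng3 and Cacng2 followed at 1.58 ± 1.11 and 0.47 ± 0.311 TPM. Cacng1, the γ subunit of the skeletal muscle channel, and Cacng6 and Cacng8 were listed at 0 in both libraries.

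Of 9 genes of regulators that bind β subunits or the channel, 8 were tested and 3 were called. The share called above 1 TPM over all genes tested was 55.5%. Cbarp, listed under its older symbol Dos, encodes a membrane protein that binds β subunits and had 48.1 TPM in replicate 1 and 9.18 TPM in replicate 2. Stac2, an adaptor of L-type channels, had 8.15 and 21.9 TPM. Gem, a small GTPase that binds β subunits and inhibits channels, had 16.8 and 8.04 TPM. Stac3, the adaptor of the skeletal muscle channel, had 5.90 and 1.94 TPM and was not called. Stac stood at 0.20 TPM in replicate 1 and is listed at 0 for the other library, and Rem1, a GTPase related to Gem, was listed at 0 in both.

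Of 10 genes of reported α2δ partners and of the α2δ-like gene Cachd1, 7 were tested and 5 were called. The share called above 1 TPM over all genes tested was 55.5%. Nrxn3, a presynaptic adhesion gene, stood at 813 ± 178 TPM, and Kcnma1, the large-conductance potassium channel, at 212 ± 7.66 TPM (SD, n = 2). Nrxn2 followed at 42.0 ± 5.01 TPM. Cachd1 and the thrombospondin genes Thbs2 and Thbs4 were listed at 0 in both libraries.

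The members share little sequence that could let reads pass between them. Of the 30-base words in the GENCODE M21 transcripts of a member, at most 4 occurred in another member on either strand. Coding sequences were 59.1% to 67.5% identical between α2δ genes over aligned bases and 69.5% to 73.5% between β genes. Cacna2d4 was closest to Cacna2d3, at 67.5%, and Cacna2d1 to Cacna2d2, at 65.0%. The longest overlaps with other annotated genes were those of 2 β genes: Cacnb4 shares 1433 exonic bases with A430018G15Rik on the opposite strand, and Cacnb2 shares 618 with the pseudogene Gm10849. Of their 30-base words, 15.6% and 6.74% also occur in other genes, against 1.13% or less for each of the other members. A430018G15Rik had 7.46 TPM in replicate 1 and 2.88 TPM in replicate 2, so part of the Cacnb4 value is uncertain if strand was not used in counting. Cacna2d1, Cacna2d3, Cacna2d4 and Cacnb3 share no exonic base with another annotated gene.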

How the data were processed

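RNA of 2 libraries of sorted type 5 bipolar cells was measured. The authors deposited 1 table of TPM, with 1 column per library. The column of replicate 1 spells its gene with letters exchanged and was matched by replicate number. TopHat2 2.0.10, RSEM 1.2.28 and build mm10 are named, per the submitters' processing notes, with no role stated. The sources used here do not give annotation, filters or use of strand. Errors measure the spread between these 2 libraries, which may be partly technical.

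Values were put on the log2(TPM + 1) scale. Levels above 1 and 10 TPM were tested over the 19968 genes above 0 in either library with an intercept-only limma model and a variance trend (R 4.3.3, limma 3.58.1), one-sided, with Benjamini-Hochberg adjustment and a threshold of 0.05. limma gave an infinite prior for the variance. The procedure was tested on simulated data in which variance followed a trend with abundance. That test therefore does not cover genes whose libraries lie further apart than the trend. Annotation came from GENCODE M21, upstream sequences from RefSeq on GRCm38.p6, and alignments from Biopython 1.88.

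The members and lists were chosen with earlier results of these data known. Named are all members, all α1 genes, of other lists up to 4 highest and 2 lowest genes, and of marker lists up to 3 highest and defining genes at 0. Some genes that this rule names are not reported here. Genes that overlap members, Rps27, Gad1, Gad2, Grm6, Cabp4, Htr3a, Chrm2 and Slitrk5 were named beyond that rule with their values in view. No gene is named for a pattern like a member's, because any correlation over 2 libraries is perfect. Alternatives were pseudocounts of 0.1 and 0.5, other filters, no trend, rescaling without mitochondrial genes, quantile normalization and each library alone. Protein identity was not analysed here, and coding nucleotides were compared instead.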

Additional observations from a re-analysis of the deposited data

How the results depend on the processing

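No paired analysis was possible because the series has a single group. Of 7 members above 1 TPM, the settings gave 6 or 7. The count above 10 TPM was 2 in all limma settings but 1: rescaled without mitochondrial genes it was 4. With no test, 5 to 6 members were at or over 10 TPM in a library alone (6 without replicate 1, 5 without replicate 2). Under that rescaling Cacnb4 passed from below to above the 10 TPM line by 0.17 log2 units without being called, since removing the mitochondrial share raises every TPM. The order of the α2δ genes kept 2 of 4 places without replicate 1 and 2 without replicate 2, with Cacna2d4 first in both. The β order kept all 4 places in each. The share of Cacna2d4 in its family was 81.9% from means on the log2 scale, against 81.2% from mean TPM, and that of Cacnb2 was 83.8% to 91.0% over single libraries. Of the 55 genes of the partner lists, 32 were called above 1 TPM and 30 to 35 under other limma settings. The 32 genes are 58.2% of the genes listed and 66.7% of the 48 tested, against 55.5% of all genes tested. With 2 libraries and no known depth, a gene not called is not shown to lie under the line.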

Other observations

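A gene for a leucine-rich repeat membrane protein lies within the span of each of 2 α2δ genes on the opposite strand. Lrtm1 lies within Cacna2d3 on chromosome 14 from 29018208 to 29033645, and Lrtm2 within Cacna2d4 on chromosome 6 from 119315133 to 119330766. They share no exonic base with their hosts. Lrtm1 had 596 TPM in replicate 1 and 499 TPM in replicate 2, which was 33.8 and 26.3 times the level of Cacna2d3. Lrtm2 had 39.9 TPM in replicate 1 and 115 TPM in replicate 2, which was 0.140 and 0.638 times the level of Cacna2d4. The nested gene was thus above its host at Cacna2d3 and below it at Cacna2d4 in both libraries. Lrtm1 and Lrtm2 are on no list and were picked with their values in view.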
